A study of Mus musculus with 5 samples.

Results

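The D cyclins Ccnd1, Ccnd2 and Ccnd3, their kinases Cdk4 and Cdk6, the kinase inhibitors Cdkn1b, Cdkn2c and Cdkn2d and the pocket protein genes Rb1 and Rbl1 were followed in sorted mouse common lymphoid progenitors (CLPs), the marrow cells that give rise to B, T and natural killer cells. These 10 genes were chosen by name, as the gene family that controls entry into the cell cycle, with earlier results of these data known. All 10 were found among the 55487 gene identifiers of the count table by mapping symbols to Ensembl identifiers on GRCm38. All 10 also passed the filter on low counts, among 14423 genes tested. RNA was measured in 3 SF1 libraries and 2 wild-type (WT) libraries of bone marrow cells sorted as Lin-CD127+Flt3+. SF1 mice carry SclCre and JAK2-V617F, an activated form of the cytokine receptor kinase JAK2 that is common in myeloproliferative neoplasms. Scl, also called Tal1, is active in blood stem and progenitor cells, and Cre acts there after tamoxifen. Marrow of both genotypes was taken 16 weeks after tamoxifen. The labels give neither age nor sex of the mice, nor whether WT mice carried SclCre or animals were pooled, and p-values therefore measure only the spread between these libraries.

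Cells decide in G1 whether to divide, and the D cyclins carry growth factor signals into that decision. A D cyclin binds CDK4 or CDK6, and the active kinase phosphorylates RB1 and its relatives p107 (Rbl1) and p130 (Rbl2), which releases E2F transcription factors to switch on genes of DNA replication. INK4 inhibitors such as p18 (Cdkn2c) and p19-INK4D (Cdkn2d) bind CDK4 and CDK6, while p27 (Cdkn1b) acts mainly on cyclin-CDK complexes that hold CDK2. In lymphoid progenitors cyclin D3 and CDK6 are the members best known to be needed for expansion, and interleukin 7, whose receptor uses JAK1 and JAK3, is a main signal for their division.

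Total counts were between 8894288 and 20424296 per library, WT replicate 1 being the deepest, and 3 counts, taken as the floor, were worth 0.151 to 0.342 CPM depending on the library (CPM are counts brought to a common library total, here by the TMM method). Of 8 genes that mark sorted lymphoid progenitors, 3 were higher in SF1 and 2 lower. Il7r and Ptprc were 1.25-fold and 1.32-fold higher and Ly6a, the stem cell antigen Sca-1, 2.08-fold higher (edgeR adjusted p = 0.0318, 0.0169 and 0.000772), while Kit was 1.43-fold and Rag1 2.0-fold lower (0.0116 and 0.0199). Flt3 and Dntt did not pass (1640 and 5130 CPM in SF1, 1510 and 5060 CPM in WT). Markers of other cell types also differed between the groups. Of 16 neutrophil and monocyte markers 15 were higher in SF1, with summed levels between 2470 and 6330 CPM against 1110 and 1430 CPM in WT. Of 14 B-lineage markers 9 were lower in SF1, with summed levels between 1350 and 1900 CPM against 2200 and 2480 CPM. No marker of these 2 lists was at 0 in either group. Of 8 tested plasmacytoid dendritic markers 6 were higher (summed 2750 to 3290 CPM against 1570 and 1730 CPM, with Klk1 at 0 in SF1), and of 7 tested natural killer, innate lymphoid and T cell markers 3 were higher (260 to 279 CPM against 199 and 210 CPM, with Ncr1 and Cd3e at 0 in SF1 and Tbx21 and Cd3g at 0 in WT). Of 9 tested erythroid markers 6 were lower (77.9 to 103 CPM against 184 and 209 CPM, with Hba-a2 and Slc4a1 at 0 in SF1). Of 9 tested mature B and plasma cell markers 3 were higher and 1 lower (3740 to 4180 CPM against 3240 and 3360 CPM). The 3 were the antibody genes Igkc, at 163 against 0.473 CPM, Igha, at 226 against 0.707 CPM, and Jchain, at 61.8 against 1.13 CPM. The lower gene was Cd37, at 274 against 374 CPM. Ighm, the largest part of these sums, did not pass (2720 against 2540 CPM, edgeR adjusted p = 0.373). Mzb1, Sdc1, Prdm1 and Xbp1 did not pass either. In such bulk samples fewer cells of a type and less RNA per cell cannot be told apart, and the part of these other cells in the results below was not tested, except where a value is given.

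Of the 10 genes, Ccnd3 fell and Cdkn2d and Rb1 rose in SF1, while 7 did not pass (edgeR's quasi-likelihood F test, p-values adjusted over all genes by the Benjamini-Hochberg method). These 3 of 10 stand beside the 16.5% of all tested genes that passed. For 6 of the 10 no SF1 value fell within the WT range or the reverse, so that the groups did not overlap, beside 49% of all tested genes. The 3 changes were between 1.48-fold and 1.78-fold. The median log2 fold change over the 10 genes was 0.04, beside 0.02 over all genes. Without WT replicate 1, 2 of the 10 passed, beside 6.6% of all genes. Still 3 passed without SF1 replicate 1, 2 or 3 (beside 15.3, 8.79 and 9.19%), with DESeq2 size factors (16.5%), limma voom (18%) or the stricter filter (20.5%), and 4 passed without WT replicate 2 (12.3%), with upper quartile scaling (16.6%), the DESeq2 Wald test (16.8%), no filter (12.3%), GC and length correction (16.4%) or thinning (16%).

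**Figure D1:**
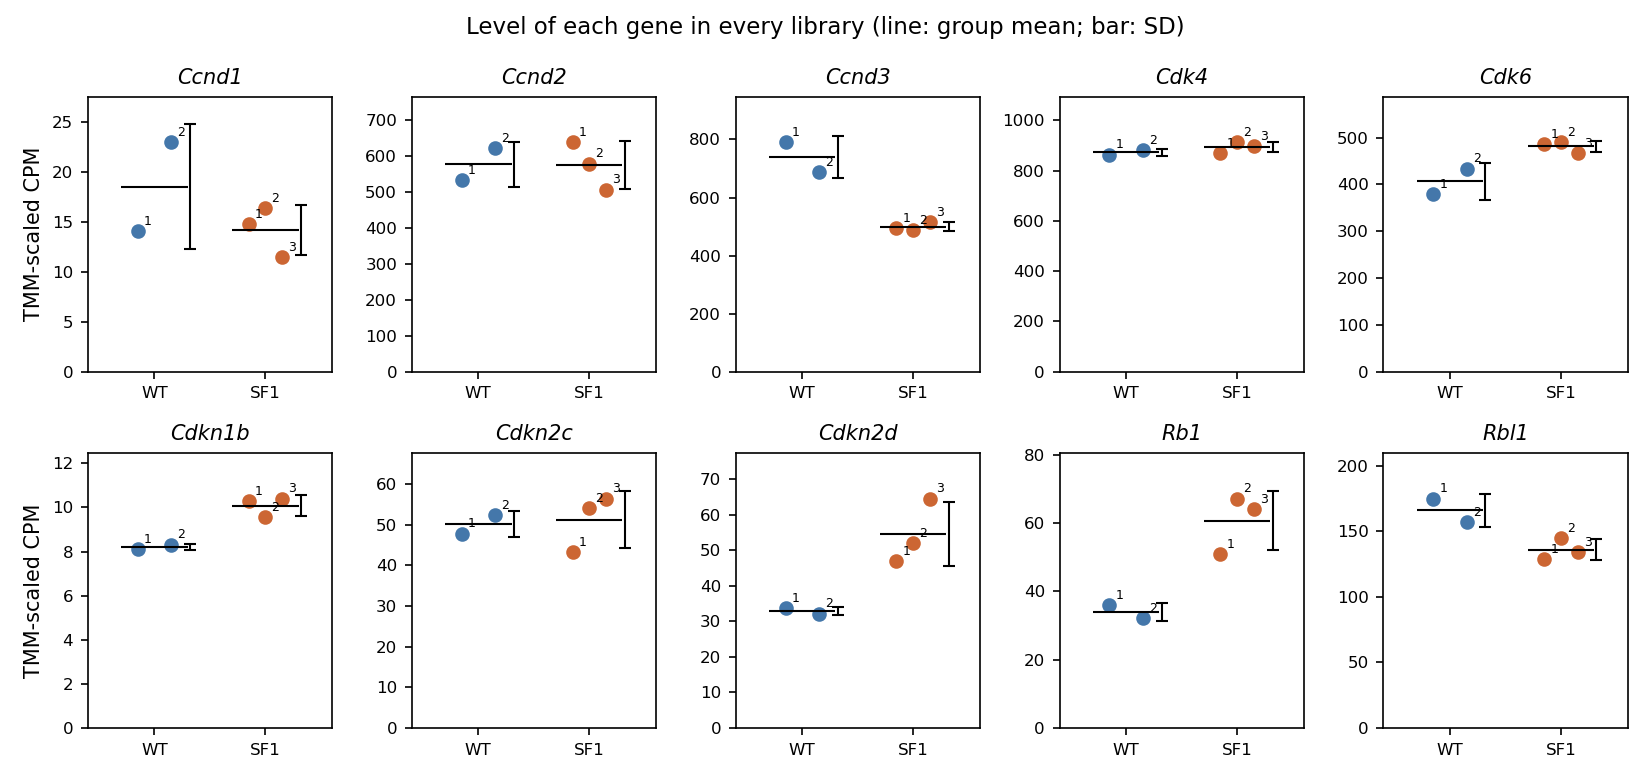
Level of each of the 10 genes (TMM-scaled CPM, vertical axis from 0) in the 2 WT libraries (blue) and the 3 SF1 libraries (orange), with replicate numbers, the group mean as a line and the SD as a bar. The SF1 points of Ccnd3, between 487 and 516 CPM, lie below both WT points, and those of Cdkn2d and Rb1 lie above them.

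Cyclin D3 RNA was lower in every SF1 library. Ccnd3 (ENSMUSG00000034165, GRCm38 chromosome 17, 47505051 to 47599691, plus strand) was at 495, 487 and 516 CPM in SF1 (replicates 1, 2 and 3) and at 790 and 687 CPM in WT replicates 1 and 2. The SF1 libraries lay close together, and both WT libraries were above all of them. The difference was 1.48-fold (log2 fold change -0.57, SE 0.08, 95% interval -0.75 to -0.38, adjusted p = 0.00262 by edgeR). After the GC and length trends of each library were removed, it was smaller, at a log2 fold change of -0.31 (edgeR adjusted p = 0.0151), and still passed. Without WT replicate 1, the higher WT library, it was -0.46 (edgeR adjusted p = 0.0159).

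Ccnd3 is transcribed from more than 1 start site, and the bases before the most upstream of them are shown because the expression change concerns this gene. The window covers chr17:47504801-47505050 of GRCm38.p6 on the plus strand, from RefSeq, and holds no annotated exon.
Ccnd3 upstream window: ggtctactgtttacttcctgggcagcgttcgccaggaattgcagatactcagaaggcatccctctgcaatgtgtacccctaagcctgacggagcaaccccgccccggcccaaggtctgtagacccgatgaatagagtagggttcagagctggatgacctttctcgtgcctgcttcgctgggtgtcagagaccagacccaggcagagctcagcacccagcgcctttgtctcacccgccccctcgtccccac
No capitals appear because none of the 4 motifs searched, named below with Cdk4, was found in it. Another Ccnd3 window, chr17:47593217-47593466, lies downstream of it, is not shown and also holds none of the 4 motifs. Which start site these cells used was not tested. Ccnd3 shares 361 of its 8775 exon bases with Bysl, a ribosome assembly gene on the opposite strand. Bysl was also lower in SF1 (94.4 ± 5.25 CPM, SD, n = 3, against 142 ± 6.99 CPM, n = 2, log2 fold change -0.59, edgeR adjusted p = 0.00311). The libraries do not mark strand, so reads in the shared bases cannot be assigned, and their part in the Ccnd3 value was not tested.

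Cyclin D2 RNA, by contrast, showed no difference that passed. Ccnd2 (ENSMUSG00000000184, chromosome 6, 127125162 to 127152193, minus strand), a known target of STAT5 in blood cells, was at 639, 580 and 507 CPM in SF1 (replicates 1, 2 and 3) and at 534 and 622 CPM in WT replicates 1 and 2. The groups overlapped. Its log2 fold change was -0.01 with a 95% interval from -0.25 to 0.24 (edgeR adjusted p = 0.973), so a change beyond about that width in either direction lies outside the interval.

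Ccnd1 (ENSMUSG00000070348, chromosome 7, 144929931 to 144939925, minus strand), the D cyclin most used outside the blood system, was scarce, with between 125 and 280 counts per library. It was at 14.8, 16.4 and 11.5 CPM in SF1 and at 14.1 and 23.0 CPM in WT, with overlapping groups (log2 fold change -0.36, 95% interval -0.90 to 0.17, edgeR adjusted p = 0.332). WT replicate 2 alone was high. Without it the log2 fold change was 0.01. Ccnd1 shares 1100 of its 4709 exon bases with LTO1 on the opposite strand, which was at 32.8 ± 2.52 CPM in SF1 libraries (SD, n = 3) and 31.4 ± 5.27 CPM in WT libraries (n = 2).

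Per kilobase of exon (the union of a gene's annotated exons), which allows genes to be compared, the D cyclin pool was made almost wholly of cyclin D2 and cyclin D3 RNA. In WT, Ccnd3 was the most abundant, at 90.1 and 78.3 CPM per kilobase, above Ccnd2 at 56.8 and 66.1. In SF1 both lay in the same range, Ccnd3 at 56.4, 55.5 and 58.8 and Ccnd2 at 67.9, 61.6 and 53.8 CPM per kilobase. That closeness depends on the length used. With the longest annotated transcript, a choice added after the data were seen, Ccnd3 was at 128, 126 and 134 CPM per kilobase in SF1 and Ccnd2 at 101, 91.6 and 80.0, so that Ccnd3 was above Ccnd2 in all 5 libraries. By exon length, Ccnd1 was between 2.44 and 4.89 CPM per kilobase in all 5 libraries.

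Expressed as a share of the summed level per kilobase, a quantity that does not depend on library scaling, Ccnd3 held 44.3, 46.0 and 51.1% in the SF1 libraries (replicates 1, 2 and 3), against 60.1 and 52.4% in WT replicates 1 and 2. The groups did not overlap, but SF1 replicate 3 and WT replicate 2 were close. The mean share of Ccnd3 differed by -9.14 percentage points, SF1 minus WT (47.1 ± 3.57%, SD, n = 3, against 56.3 ± 5.43%, n = 2). The two-sided exact permutation test gave p = 0.2, the smallest value that 3 against 2 libraries allow, and 0.257 after Benjamini-Hochberg adjustment over the 9 shares tested. Without WT replicate 1 the difference was -5.3 points, and without WT replicate 2 it was -13.0 points. The shares carry no correction for the GC and length trends of each library. With that correction the log2 fold changes were -0.31 for Ccnd3 and 0.02 for Ccnd2, against -0.57 and -0.01 without it. Ccnd2 held 50.4 ± 3.32% in SF1 and 41.1 ± 4.53% in WT (exact permutation p = 0.2), and Ccnd1 2.49 ± 0.383% and 2.63 ± 0.901% (exact permutation p = 1.0).

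**Figure D2:**
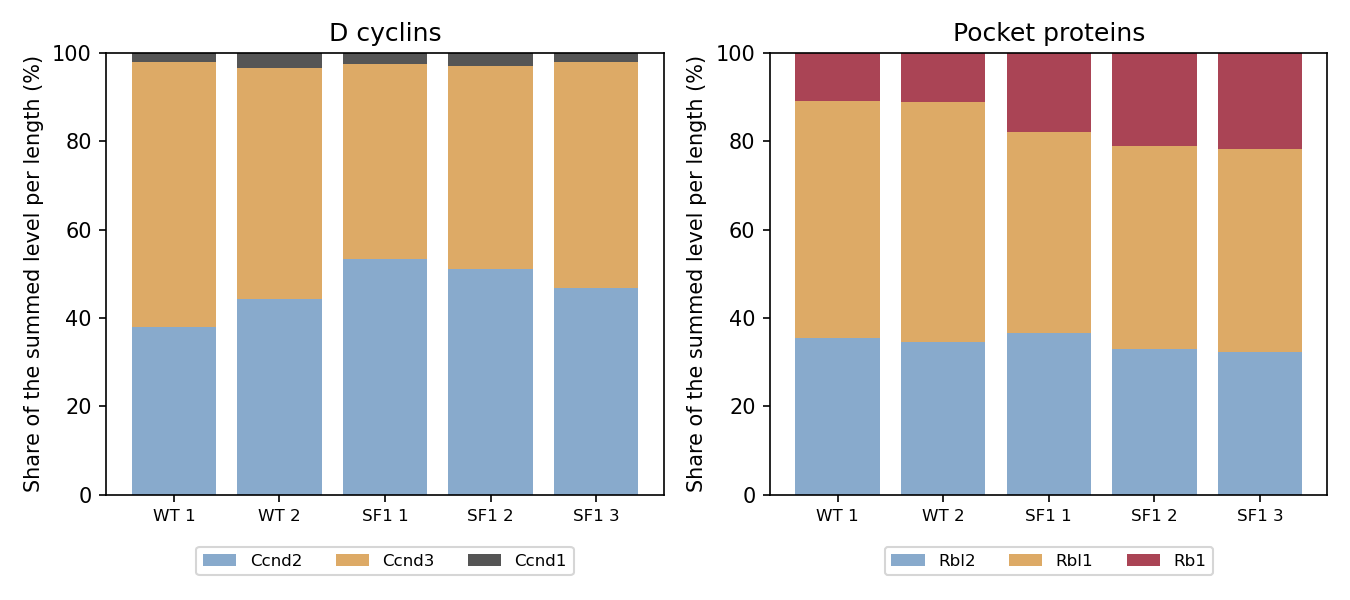
Share (%) of each gene in the summed level per kilobase of the D cyclins (left) and of the pocket protein genes (right), 1 bar per library. Ccnd3 is the largest part of both WT bars on the left (60.1 and 52.4%), and on the right Rb1 takes between 17.9 and 21.8% of the SF1 bars against 10.9 and 11.1% of the WT bars.

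Of the kinases, Cdk4 was the most abundant of the 10 genes and its level barely varied. Cdk4 (ENSMUSG00000006728, chromosome 10, 127063534 to 127067920, plus strand) was at 870, 912 and 897 CPM in SF1 and at 863 and 882 CPM in WT. The groups overlapped, and the log2 fold change of 0.03 had a 95% interval from -0.11 to 0.18 (edgeR adjusted p = 0.767). Per kilobase its level, between 266 and 281, was above that of every other member in each library. Of its 3249 exon bases 641 are shared with Tspan31 on the opposite strand, a tetraspanin gene at 151 ± 3.65 CPM in SF1 libraries (n = 3) and 130 ± 1.36 CPM in WT libraries (n = 2, edgeR adjusted p = 0.0838).

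Cdk4 is a well-known target of MYC, which binds the E-box, and Myc itself was lower in SF1, at 558, 369 and 387 CPM against 786 and 820 CPM in WT. For this reason the bases before its start site are shown, chr10:127063285-127063534 of GRCm38.p6 on the plus strand, from RefSeq, with each E-box (CACGTG) in capitals.
Cdk4 upstream window: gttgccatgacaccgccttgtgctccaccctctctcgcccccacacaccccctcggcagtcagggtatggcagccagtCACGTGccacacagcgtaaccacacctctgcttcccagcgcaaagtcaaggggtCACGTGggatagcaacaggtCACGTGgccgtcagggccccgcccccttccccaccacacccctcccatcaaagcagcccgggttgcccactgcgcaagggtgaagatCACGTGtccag
The window holds 4 E-boxes, which begin 172, 118, 98 and 11 bases before the start site. Of the 32817 RefSeq windows of 250 bases, 6.02% hold at least 1. In all, 7 of the 10 genes had an entry, with 9 windows. E-boxes were found in 2 of these, the windows of Cdk4 and Cdk6. The E2F motif searched (GCGGGAA, present in 3.82% of all windows) was found in 1, a Cdkn2c window. Only these exact letters were searched, so the lack of a match, as before Rbl1, does not show that other forms of an E2F site are missing. The CHR element (TTTGAA, 16% of all windows) and the STAT motif (TTCNNNGAA, 7.01%) were found in none of the 9. Both strands were searched, the motifs do not overlap in these windows, and a match describes letters only, not binding.

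Cdk6 (ENSMUSG00000040274, chromosome 5, 3341485 to 3531008, plus strand), the D cyclin kinase prominent in blood progenitors, was at 487, 490 and 467 CPM in SF1 (replicates 1, 2 and 3) and at 379 and 434 CPM in WT replicates 1 and 2. All SF1 libraries were above both WT libraries, yet the difference did not pass (log2 fold change 0.25, SE 0.08, 95% interval 0.06 to 0.43, edgeR adjusted p = 0.0723). It passed with upper quartile scaling (0.30, edgeR adjusted p = 0.0417) and without WT replicate 2 (0.34, edgeR adjusted p = 0.0434), that is in 2 of 15 alternatives, and without WT replicate 1 it was 0.15 (edgeR adjusted p = 0.4). Per kilobase Cdk6 was between 27.1 and 35 CPM, and it held 11.1 ± 0.363% of the summed Cdk4 and Cdk6 level in SF1 (n = 3) and 9.76 ± 0.70% in WT (n = 2, exact permutation p = 0.2).

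Among the inhibitors, only Cdkn2d passed the test. Cdkn2d (ENSMUSG00000096472, chromosome 9, 21288410 to 21291407, minus strand), which encodes p19-INK4D, was at 47.0, 52.1 and 64.6 CPM in SF1 (replicates 1, 2 and 3) and at 33.8 and 32.2 CPM in WT replicates 1 and 2. Each SF1 library was above both WT libraries, and SF1 replicate 3 was the highest. Cdkn2d rose 1.65-fold (log2 fold change 0.72, SE 0.15, 95% interval 0.39 to 1.05, edgeR adjusted p = 0.0117). The call was lost without WT replicate 1 (0.76, edgeR adjusted p = 0.0569). The summed neutrophil and monocyte markers had the same order over the SF1 libraries, at 2470, 3110 and 6330 CPM. So did the summed plasmacytoid dendritic markers, at 2750, 3000 and 3290 CPM. On the neutrophil and monocyte list Elane (93.2, 57.8 and 172 CPM) and Csf1r (124, 158 and 141 CPM) did not follow that order, while the other genes did. On the plasmacytoid dendritic list Siglech, Cd300c and Ccr9 were highest in SF1 replicate 2, while Bst2, Tcf4, Irf8, Ly6d and Spib followed the sum. Cdkn2c, which did not pass, also had this SF1 order. In WT replicates 1 and 2 the marker sums were 1110 and 1430 CPM and 1570 and 1730 CPM, and Cdkn2d was at 33.8 and 32.2 CPM. Most of the WT neutrophil and monocyte sum was Mpo, at 779 and 988 CPM, which did not pass (log2 fold change -0.04, edgeR adjusted p = 0.857). Other genes of that list went both ways between WT replicates 1 and 2, such as Ngp (35.5 and 30.7 CPM) and Lyz2 (123 and 145 CPM). Without SF1 replicate 3, where Cdkn2d and both marker sums were highest, the log2 fold change of Cdkn2d was 0.58 (edgeR adjusted p = 0.0313). In SF1 replicates 1 and 2 both marker sums were also above those of WT, so this fit cannot show the part of other cells. The part of other cells in the Cdkn2d value was not tested.

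Cdkn2c (ENSMUSG00000028551, chromosome 4, 109660876 to 109667189, minus strand), which encodes p18-INK4C, was at 43.3, 54.0 and 56.4 CPM in SF1 and at 47.8 and 52.3 CPM in WT. The WT values lay within the SF1 range, and the log2 fold change of 0.04 had a 95% interval from -0.26 to 0.34 (edgeR adjusted p = 0.872). The other INK4 genes Cdkn2a and Cdkn2b, which senescent and stressed cells switch on, had 0 counts in all 5 libraries, which allows up to between 0.151 and 0.342 CPM per library. The INK4 RNA per kilobase thus came from Cdkn2c and Cdkn2d, and Cdkn2d held 65.0, 62.2 and 66.1% of it in SF1 against 54.7 and 51.3% in WT (11.4 points higher, exact permutation p = 0.2, the smallest possible).

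Cdkn1b (ENSMUSG00000003031, chromosome 6, 134920401 to 134925513, plus strand), which encodes p27 and is a gene that Foxo factors switch on in resting cells, had the lowest level per kilobase of the 10 genes in every library, between 1.78 and 2.28 CPM. It was at 10.3, 9.55 and 10.4 CPM in SF1 and at 8.10 and 8.31 CPM in WT. The SF1 libraries were all above the WT libraries, but with between 73 and 161 counts per library the log2 fold change of 0.30 had a 95% interval from -0.12 to 0.72 and did not pass (edgeR adjusted p = 0.31). Of the related inhibitors, the p53 target Cdkn1a was at 97.3 ± 11.4 CPM in SF1 (SD, n = 3), against 92.6 ± 1.25 CPM for WT (n = 2, edgeR adjusted p = 0.702), and Cdkn1c, prominent in quiescent stem cells, at 1.34 ± 0.752 and 1.31 ± 0.0749 CPM (edgeR adjusted p = 0.97).

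Of the pocket protein genes, Rb1 rose and Rbl1 did not pass. Rb1 (ENSMUSG00000022105, chromosome 14, 73183673 to 73325822, minus strand), the retinoblastoma gene, was at 50.8, 67.1 and 64.1 CPM in SF1 (replicates 1, 2 and 3) and at 35.9 and 32.1 CPM in WT replicates 1 and 2. No SF1 library reached down to the WT range. Rb1 rose 1.78-fold, the largest difference among the 10 genes (log2 fold change 0.83, SE 0.14, 95% interval 0.51 to 1.15, edgeR adjusted p = 0.0056). It passed under each alternative tried, with log2 fold changes between 0.72 and 0.95.

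Rb1 shares exon bases with 2 protein-coding genes on the opposite strand, 408 of its 6015 with Lpar6, a lysophosphatidic acid receptor gene within an Rb1 intron, and 488 with Rcbtb2. Lpar6 also rose, from 77.2 ± 11.4 CPM (SD, n = 2) to 109 ± 3.44 CPM (n = 3, log2 fold change 0.49, edgeR adjusted p = 0.0148). Rcbtb2 was at 105 ± 3.52 CPM in WT, against 101 ± 5.27 CPM for SF1 (edgeR adjusted p = 0.733). The part of shared reads in the Rb1 value was not tested.

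Rbl1 (ENSMUSG00000027641, chromosome 2, 157145893 to 157204534, minus strand), itself an E2F target that cycling cells express, was at 129, 145 and 134 CPM in SF1 and at 175 and 157 CPM in WT. Its SF1 libraries were all below the WT libraries, and the difference narrowly failed to pass (log2 fold change -0.29, SE 0.09, 95% interval -0.50 to -0.09, edgeR adjusted p = 0.0576). It passed by the DESeq2 Wald test (adjusted p = 0.0371), without the low-count filter (edgeR adjusted p = 0.0193), after GC and length correction (edgeR adjusted p = 0.0248) and after thinning each library to the smallest total count (edgeR adjusted p = 0.0496), at log2 fold changes between -0.33 and -0.29. In the other 11 alternatives it did not pass, with -0.21 without WT replicate 1 (edgeR adjusted p = 0.329) and -0.23 with upper quartile scaling (edgeR adjusted p = 0.107). Rbl2, the third family member, which resting cells favour, averaged 127 ± 6.34 CPM in SF1, against 136 ± 14.4 CPM for WT (edgeR adjusted p = 0.487).

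Within the pocket protein RNA per kilobase, Rb1 held 17.9, 21.1 and 21.8% in SF1 and 10.9 and 11.1% in WT. Rbl1 was the largest part in all 5 libraries, with 45.5, 46.0 and 45.8% in SF1 and 53.6 and 54.3% in WT, although by the longest transcript Rbl1 and Rbl2 were level in SF1 replicate 1, at 26.5 CPM per kilobase each. Neither share overlapped between the groups (a difference of 9.29 points for Rb1 and -8.2 points for Rbl1, exact permutation p = 0.2 for each, adjusted 0.257). Rbl2 held 34.0 ± 2.29% in SF1 (n = 3) and 35.1 ± 0.651% in WT (n = 2, exact permutation p = 0.6).

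**Figure D3:**
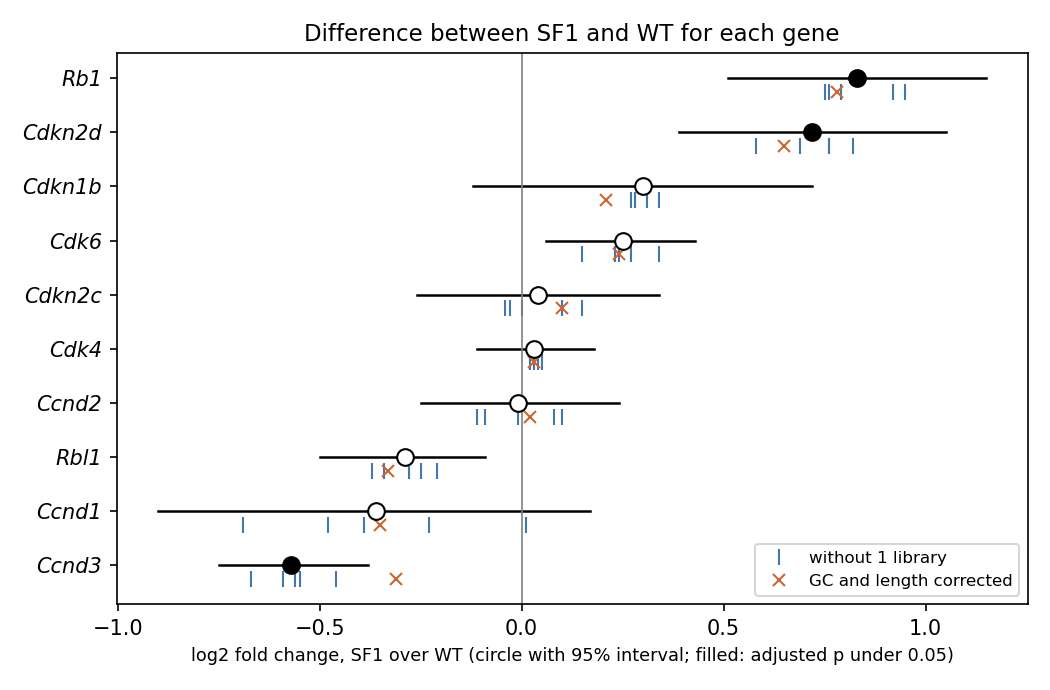
Log2 fold change, SF1 over WT, of each of the 10 genes (circle, filled where the adjusted p was under 0.05, with its 95% interval), with the values when 1 library is left out (blue ticks) and after GC and length correction (orange cross). Rb1 and Cdkn2d stand at 0.83 and 0.72, and the cross of Ccnd3 at -0.31 lies nearer to 0 than its circle at -0.57.

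Across the 10 genes, levels per kilobase fell into an order that was the same at its ends in all libraries. Cdk4 was highest, followed by Ccnd3 and Ccnd2, whose ranges overlapped (55.5 to 90.1 and 53.8 to 67.9 CPM per kilobase; 126 to 205 and 80.0 to 101 by the longest transcript, without overlap), and these 3 were above all others in every library. Cdk6 (27.1 to 35), Cdkn2d (20.5 to 41.0) and Rbl1 (21.5 to 29.3) overlapped with each other, and Cdkn2c (16.1 to 21.0) reached the lower end of Cdkn2d. Rb1 (5.34 to 11.2) lay below these and above Ccnd1 (2.44 to 4.89) and Cdkn1b (1.78 to 2.28).

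The other genes of the pathway, 138 genes in 8 lists also chosen with earlier results of these data known, included lower ones and none higher. Of 135 that could be tested, 31 were lower in SF1 (23% of them, beside 9.74% of all genes tested), 0 were higher (beside 6.77%) and 104 did not pass. At an unadjusted p under 0.05, 3 were higher and 49 lower, but all genes were not counted at that threshold. DESeq2 also called 0 of the pathway genes higher. Their median log2 fold change was -0.14. With 1 library left out, the share of all genes that were lower was not counted. The shares beside the next counts, of the same 135 genes, are therefore for either direction. With all libraries that share was 16.5%, and how far the excess of lower genes shrank cannot be read from them. The lower genes numbered 13 when SF1 replicate 2 was left out, beside 8.79% of all genes passing in either direction there, 15 when SF1 replicate 3 was (beside 9.19%) and 12 when WT replicate 1 was (beside 6.6%), where 1 gene was higher. A single gene was also higher with upper quartile scaling, with the stricter filter and without WT replicate 2.

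Next in the cycle after the D cyclins come cyclin E and cyclin A with CDK2. Of 12 tested genes of this list 3 were lower (25%, beside 9.74% of all genes tested) and 9 did not pass. Wee1, a kinase that restrains CDK1 and CDK2, fell from 176 ± 3.15 CPM (SD, n = 2) to 124 ± 9.16 CPM (n = 3, log2 fold change -0.50, edgeR adjusted p = 0.00605). Cdc25a, the phosphatase that opposes it, was 1.32-fold lower (edgeR adjusted p = 0.0308) and Ccne2 1.22-fold lower (edgeR adjusted p = 0.0394), calls that were both lost without any 1 of SF1 replicates 2 and 3 and WT replicates 1 and 2, and for Ccne2 also without SF1 replicate 1 and with upper quartile scaling (edgeR adjusted p = 0.0833). After GC and length correction the log2 fold change of Ccne2 was -0.53, against -0.28 before it (edgeR adjusted p = 0.00504). Pkmyt1, a relative of Wee1, was at 98.0 ± 8.09 CPM in SF1, against 121 ± 5.18 CPM for WT (edgeR adjusted p = 0.0613).

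Of the 10 E2F and DP factor genes 2 were lower (20%, beside 9.74% of all genes tested) and 8 did not pass. E2f3, an activator E2F, fell from 53.6 and 56.9 CPM in WT to 24.8, 30.4 and 19.7 CPM in SF1, a 2.21-fold difference (log2 fold change -1.14, edgeR adjusted p = 0.00278) in which the groups were far apart. Tfdp2, a dimer partner of E2F proteins, was 1.33-fold lower (edgeR adjusted p = 0.0323; 0.269 without WT replicate 1, where the log2 fold change went from -0.42 to -0.24, and 0.104 and 0.101 without SF1 replicates 2 and 3). E2f2 and the repressor E2f4 did not pass, at log2 fold changes of -0.43 and -0.23 (edgeR adjusted p = 0.0566 and 0.102), though E2f2 passed in 5 of 15 alternatives.

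In the complex that p107 and p130 form with MuvB proteins, or that B-MYB joins in dividing cells, 1 of 8 genes was lower. This share of 12.5% was near the 9.74% of all genes tested. The lower gene was Mybl2, which encodes B-MYB, at 42.0 ± 5.38 CPM in SF1 (n = 3), against 82.7 ± 3.73 CPM for WT (n = 2, log2 fold change -0.98, edgeR adjusted p = 0.0014). Foxm1, a driver of mitotic genes, was at 78.0 ± 10.6 and 103 ± 10.3 CPM (edgeR adjusted p = 0.0564, passing in 4 of 15 alternatives), and the MuvB subunit genes Lin37 and Lin54 did not pass either (edgeR adjusted p = 0.0841 and 0.159).

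D cyclins and p27 are also controlled by ubiquitin-mediated turnover. Of 22 genes listed for it 6 were lower (27.3%, beside 9.74% of all genes tested) and 16 did not pass. Ddb1, the adaptor of CUL4 ligases, fell 1.51-fold (618 ± 44.2 to 409 ± 49.8 CPM, n = 2 and 3, edgeR adjusted p = 0.00608). Ambra1, which brings D cyclins to that ligase, was 1.34-fold lower (edgeR adjusted p = 0.0261). The Ambra1 call was lost after GC and length correction (log2 fold change from -0.42 to -0.25, edgeR adjusted p = 0.122), without WT replicate 1 (0.181) and without SF1 replicate 2 or 3 (0.0811 and 0.0759). Rnf123, a ligase subunit for p27, was 1.39-fold lower (edgeR adjusted p = 0.0109; 0.0889 after GC and length correction, where the log2 fold change went from -0.47 to -0.22, and 0.1 without WT replicate 1) and Cul4b 1.35-fold lower (edgeR adjusted p = 0.016; between 0.0518 and 0.0788 without any 1 of SF1 replicates 2 and 3 and WT replicates 1 and 2). With SF1 replicate 2, SF1 replicate 3 or WT replicate 1 left out, 2, 2 and 1 genes of this list were lower.

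Of 13 genes listed as regulators of D cyclin or p27 transcription, 4 were lower (30.8%, beside 9.74% of all genes tested) and 9 did not pass. Tcf3, which encodes the E2A proteins, was 2.37-fold lower (edgeR adjusted p = 0.000161). Myc, at 438 ± 104 CPM in SF1, against 803 ± 24.4 CPM for WT, was 1.83-fold lower (edgeR adjusted p = 0.00663), and Foxo1, which holds back the cycle in resting lymphocytes, 1.76-fold lower (edgeR adjusted p = 0.0185; 0.165 without WT replicate 1, where the log2 fold change went from -0.82 to -0.49, and 0.0677 and 0.0632 without SF1 replicates 2 and 3). Ctnnb1, which encodes beta-catenin, was 1.19-fold lower (edgeR adjusted p = 0.0453), a call lost in 11 of 15 alternatives, among them any 1 library left out, upper quartile scaling (0.098), the stricter filter (0.0529), GC and length correction (0.0536) and thinning (0.0521). The median of this list was -0.20, and 0.03 after GC and length correction.

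The replication genes that E2F proteins switch on gave 9 lower genes of 36 (25%, beside 9.74% of all genes tested), 27 not passing, and a median of -0.16. Uhrf1 and Dnmt1, which copy DNA methylation behind the fork, fell 2.02-fold and 1.64-fold (edgeR adjusted p = 0.000371 and 0.00173). Pold1, the catalytic subunit of polymerase delta, fell 1.94-fold (edgeR adjusted p = 0.000381), and the licensing factor Cdt1 1.77-fold (edgeR adjusted p = 0.00284). This list had 4 lower genes when SF1 replicate 2, SF1 replicate 3 or WT replicate 1 was left out.

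Of 30 genes of G2 and mitosis 6 were lower (20%, beside 9.74% of all genes tested) and 24 did not pass, with a median of -0.14. Plk1, the polo kinase, was 1.39-fold lower (edgeR adjusted p = 0.0265; 0.055, 0.0764 and 0.124 without SF1 replicate 1, SF1 replicate 2 and WT replicate 2). Ect2, a cytokinesis factor, fell 1.31-fold (edgeR adjusted p = 0.0101), and the spindle checkpoint gene Bub1b 1.30-fold (edgeR adjusted p = 0.0112; 0.0708 without WT replicate 1). Ccnf, which encodes cyclin F, was 1.31-fold lower (edgeR adjusted p = 0.0154; 0.123 after GC and length correction, where the log2 fold change went from -0.39 to -0.22, and 0.058, 0.0542 and 0.0596 without SF1 replicate 2, WT replicate 1 and WT replicate 2). The list had 2 lower genes without SF1 replicate 2, WT replicate 1 or WT replicate 2.

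**Figure D4:**
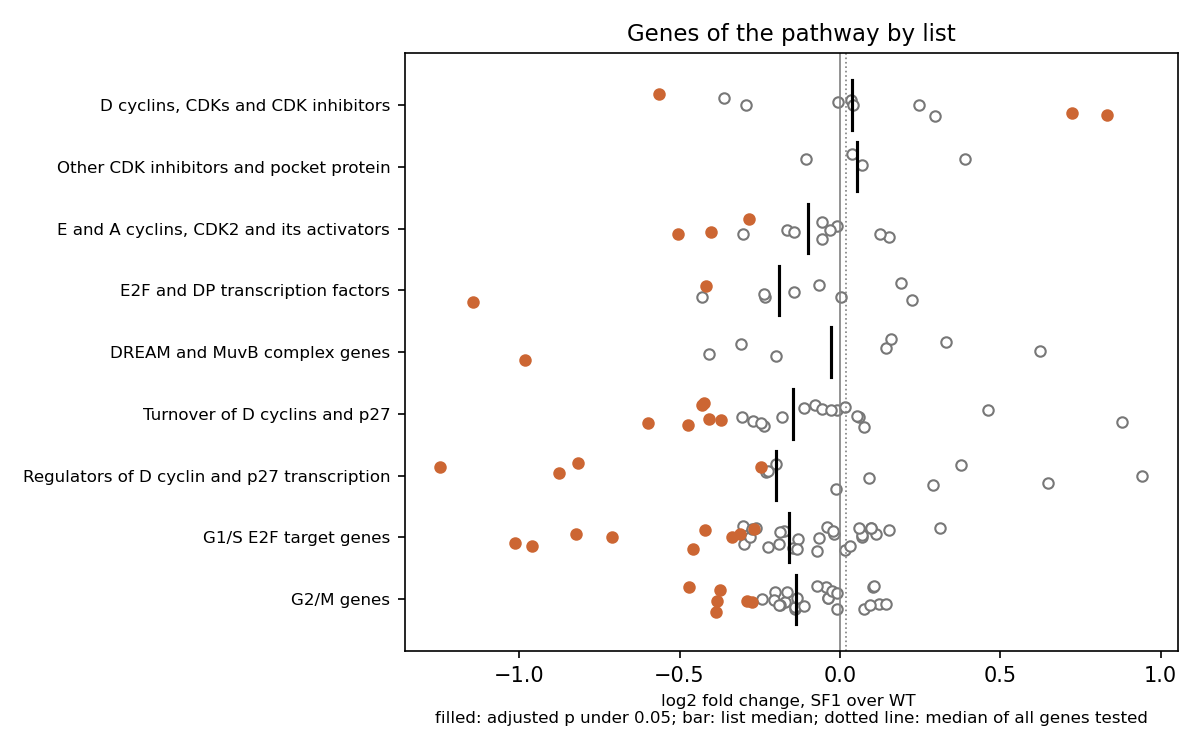
Log2 fold change, SF1 over WT, of every tested gene of the 10-gene family (top) and of the 8 other lists, 1 point per gene, filled where the adjusted p was under 0.05, with the median of each list as a bar. In the lists below the top line all 31 filled points lie left of 0, while the family at the top has 1 filled point left of 0 and 2 to the right.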

How the data were processed

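The data are a single deposited table of unnormalized read counts by gene. Tools named in the submitters' processing notes are FastQC, HISAT2 (version 2.2.1) and featureCounts (version 2.0.1), with the genome build GRCm38. Which annotation was counted, with which strand option, and how reads that fit several genes were handled are points not given in the sources used here. Per the labels' protocols, RNA with a RIN above 7 was amplified with SMART-Seq chemistry and made into Nextera XT libraries, which hold no molecular identifiers and do not mark strand, so PCR copies count as reads and floors cover counting error only. Symbols, coordinates and exon lengths came from GENCODE M21 (55227 of 55487 identifiers matched), and upstream windows from RefSeq (GRCm38.p6).

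The whole table was fitted by edgeR 4.0.16 in R 4.3.3 after TMM scaling, with filterByExpr (minimum count 10) and the quasi-likelihood test, without covariates, with a threshold of 0.05 on p-values adjusted over all genes tested. The SE is the log2 fold change divided by the root of F, and 95% intervals use it. Shares used an exact permutation test over libraries. The edgeR test, not the permutation test, was run on simulated counts as a check, with values not reported here. The genes and lists were chosen with earlier results of these data known. Named are the 10 genes and, from each other list, up to 4 genes with the smallest p and a mean of at least 1 CPM. Lpar6, Bysl, Rcbtb2, LTO1 and Tspan31 were added for their overlap, and Cdkn2a, Cdkn2b and the marker genes after their values were seen. Alternatives were other scalings, DESeq2 1.42.0, limma 3.58.1 voom with sample weights, other filters, leaving out each library, a replicate block, GC and length correction, thinning, and, for shares and, after the data were seen, levels per kilobase, transcript length.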

Additional observations from a re-analysis of the deposited data

How the results depend on the processing

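Of the 10 genes, between 2 (without WT replicate 1) and 4 passed over the 15 alternatives. Ccnd3 and Rb1 passed in all 15, Cdkn2d in 14. Of the genes that did not pass, Ccnd1, Ccnd2 and Cdkn2c changed sign under at least 1 alternative. The log2 fold change of Ccnd2 was 0.05 with upper quartile scaling, 0.01 with the stricter filter (a mean of 5 CPM), 0.02 after GC and length correction, and from -0.11 to 0.10 with 1 library left out. With the replicate number as a block it was 0.08, and 0.11 with the block and the GC and length correction together. That of Cdkn2c was -0.05 with the block and from -0.04 to 0.15 with 1 library left out, and that of Ccnd1 from -0.69 to 0.01. The count of lower or higher genes in the 8 other lists was from 13 to 28 with 1 library left out and 18 with the replicate block. The share of Ccnd1 differed by -0.783 to 0.492 points with 1 library left out, and that of Rbl1 by -8.6 to -7.81 points, or -7.59 with the longest transcript as the length. Where a WT library is left out, the remaining one is assumed to vary like the SF1 libraries.

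Deviations of same-numbered libraries from their group means correlated at 0.0356 and 0.0646 for the 2 pairs. With 2 WT libraries the WT deviations mirror each other, so these values cannot decide whether the numbers mark a pairing. The block rests on a shared number only. With it, 1519 of all genes passed, against 2382 without. It changed no call among the 10 genes, and of the other genes named as lower it ended the calls of Cdc25a, Ccne2, Tfdp2, Ambra1, Cul4b and Ctnnb1. Of all genes, 986 passed when WT replicate 1 was left out, and 1234 and 1294 when SF1 replicate 2 or 3 was. Depth limits Ccnd1 and Cdkn1b, with between 73 and 280 counts per library.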
